A study of Homo sapiens with 6 samples.

Results

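The genes examined were 10 enzymes and partners that write, copy or erase the silencing marks of chromatin: DNMT1, UHRF1, HELLS, DNMT3A, DNMT3B, TET2, TET3, EZH2, SUZ12 and EED. They were taken by symbol from the gene count tables of both experiments. All 10 had a row among the 41471 symbols of the knockdown table and the 34157 symbols of the drug table, and all 10 passed the filter on low counts (15295 and 15655 genes, respectively). The RNA came from MDA-MB-231, an established human triple-negative breast cancer line, which lacks the estrogen and progesterone receptors. In the first experiment cells carried a lentiviral scramble shRNA, CDK16-sh1 or CDK16-sh2, the last 2 being hairpins against CDK16, a PCTAIRE-family cyclin-dependent kinase. In the second, cells without a stated hairpin received DMSO as vehicle, or the kinase inhibitor rebastinib (Reb) at 1 μM or 5 μM, for 48 h. Each of these 6 conditions was a single library, so no difference between a treated library and its control has a replicate check, and every interval given here covers counting error only.

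DNA methylation in mammals is a methyl group on cytosine of CG pairs. DNMT3A and DNMT3B place it on unmethylated DNA, DNMT1 copies it onto the new strand behind the replication fork with the help of UHRF1, which binds hemimethylated CG, and HELLS (LSH), a SNF2-family remodeler, opens packed chromatin to the machinery. TET2 and TET3 oxidize 5-methylcytosine and so start its removal. Polycomb repressive complex 2 (PRC2) methylates lysine 27 of histone H3. EZH2 is its catalytic subunit, EED reads the finished mark and SUZ12 holds the complex together. DNMT1, UHRF1, HELLS and EZH2 are known as genes whose transcripts are abundant in dividing cells, and EZH2 is often abundant in triple-negative breast cancer.

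RefSeq promoter windows (GRCh38.p14) were searched because many replication genes are bound by E2F factors near their start. Each window held 250 bases before a start and 50 after it, and all 10 genes had at least 1 window. The E2F words searched on both strands were TTTCCCGC, TTTGGCGC, TTTCGCGC and TTTGCCGC. At least 1 word stood in a window of 5 of the 10 genes (DNMT1, UHRF1, HELLS, EZH2 and SUZ12), against 3.99% of the 27305 symbols with windows. The RefSeq starts of DNMT1, UHRF1, HELLS and DNMT3B lie well inside the longer spans that the counted annotation gives them. A start named below is a RefSeq start. The matches are given in capitals within 30 bases, read 5′ to 3′ on the strand of the gene, and a word in reverse complement reads from its other end.
DNMT1, at the start itself, chr19:10194937-10194966, minus strand: catcggtttccGCGCGAAAagccggggcgc
UHRF1, 14 bases before a start, chr19:4909476-4909505, plus strand: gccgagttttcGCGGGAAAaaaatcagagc
UHRF1, 160 bases before another start, chr19:4909973-4910002, plus strand: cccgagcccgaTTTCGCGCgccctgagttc
HELLS, 76 bases before the start, chr10:94545701-94545730, plus strand: aaccgcaagctGCGCCAAAtctcgcgcagc
HELLS, 8 bases before the start, chr10:94545769-94545798, plus strand: gatgacaggatTTTCCCGCgaaggagaagc
EZH2, just after the start, chr7:148884272-148884301, minus strand: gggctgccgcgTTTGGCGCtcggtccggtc
SUZ12, 189 bases before the start, chr17:31936807-31936836, plus strand: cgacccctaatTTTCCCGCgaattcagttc
None of these matches overlapped a match of the other motifs searched. The CCAAT box (CCAAT) stood in windows of 7 of the 10 genes against 39.7% of all symbols, the GC box (GGGCGG) in 7 against 48.3%, and the cell cycle homology words TTTGAA and TTTCGAA in 3 against 18.7%. A match describes letters only and is not a measured binding site.

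The libraries of the knockdown experiment held 25838443 to 31955119 counts and those of the drug experiment 37655548 to 50303269. Mitochondrial transcripts took 16.2% of counts in CDK16-sh2 and 16.4% in 5 μM Reb, and between 7.19% and 11.3% in the other 4. In the 5 μM Reb library 27.2% of tested genes were at least 2-fold lower and 23.6% at least 2-fold higher than in DMSO, so that library stood apart from its control over the whole transcriptome. CDK16 had 3223 counts with scramble shRNA, 1360 with CDK16-sh1 and 846 with CDK16-sh2, which is a log2 fold change of -1.52 and -1.82. It had 4996, 4609 and 2797 counts in DMSO, 1 μM and 5 μM Reb, log2 fold changes of -0.14 and 0.27, where CDK16 is the target of the study's inhibitor and not of a hairpin. Of markers of the line, VIM, CD44, AXL and KRT18 were abundant in each library (lowest count 6021, of KRT18 in 5 μM Reb). CAV1 had 607 to 5911 counts, LGALS1 1798 to 6889 and S100A4 320 to 2700. Of markers listed as absent or low in the line, ESR1 and PGR had at most 16 counts, CDH1 at most 53 and ESRP1 at most 56. CLDN3 had at most 130 and GATA3 73 to 390. SPARC, listed as a marker of the line, had at most 15 counts in the knockdown libraries and 283 to 1970 in the drug libraries. Of markers of other cell types, ALB had at most 1 count, CD3E at most 8 and PTPRC at most 35, and CD68 had 6258 to 19331, COL1A1 318 to 1279 and PECAM1 4 to 154. The highest counts of LYZ (130) and PTPRC (35) were both in 1 μM Reb, and their part in the results was not tested.

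Levels of the 10 genes, as RPKM (counts scaled to exon length and library total), spanned more than 2 orders of magnitude within a library. DNMT1 was the highest in 5 of the 6 libraries, with 94.97 RPKM in scramble shRNA and 149 in DMSO. UHRF1 (38.6 and 39.8) and EZH2 (26.7 and 37.5) followed in both controls. SUZ12, EED and HELLS lay between 6.61 and 10.3 RPKM in the controls. The de novo enzymes and the TET enzymes were the lowest, and DNMT3A was last in all 6 libraries, with 0.538 RPKM (167 counts) in scramble shRNA and 1.10 (666 counts) in DMSO. Neighbours in this order were apart by more than their counting intervals in scramble shRNA, and only TET2 and DNMT3A overlapped in DMSO. In CDK16-sh1 HELLS overlapped EED and SUZ12 overlapped TET3, and in CDK16-sh2 EED overlapped SUZ12. In 5 μM Reb EZH2 (60.2) stood above DNMT1 (45.0), and TET3 overlapped UHRF1 and SUZ12 overlapped DNMT3B.

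**Figure D1:**
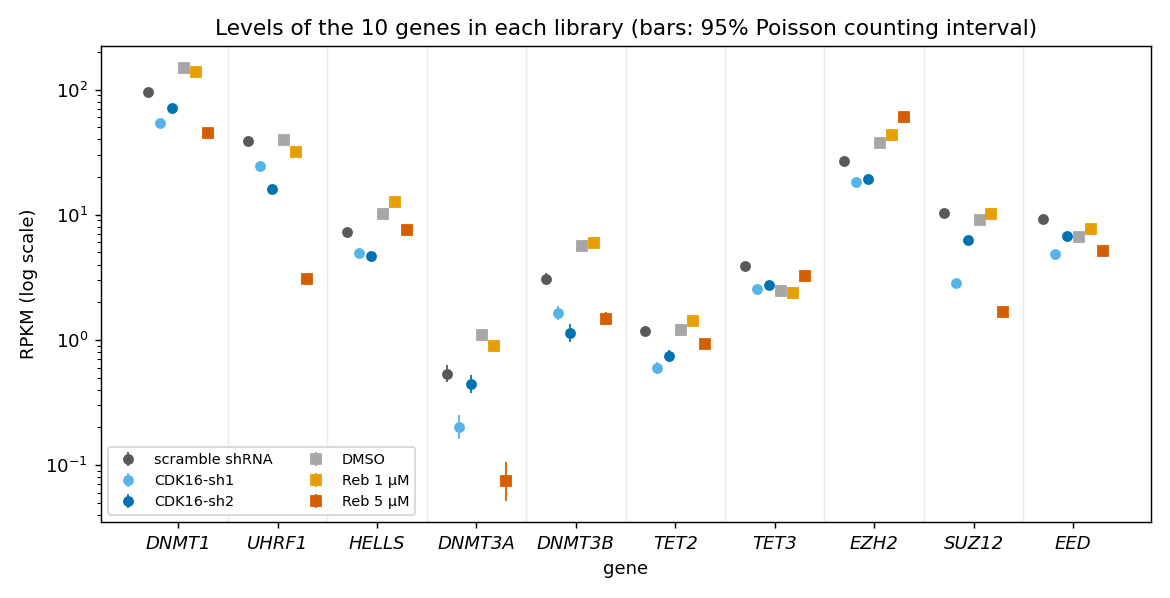
RPKM on a log axis for each of the 10 genes in each of the 6 libraries, with 95% Poisson counting intervals as bars. Circles are the knockdown experiment and squares the Reb experiment, which were normalized separately; DNMT1 lies highest in all libraries but 5 μM Reb, and DNMT3A lies lowest in all 6.

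The first comparison asked how each gene stood when CDK16 was depleted. All 10 genes were lower than scramble shRNA in both hairpin libraries under the main scaling, which is the trimmed mean of M values (TMM). Over all tested genes 50.1% were lower in CDK16-sh1 and 48.6% in CDK16-sh2. Their log2 fold changes had a median of -0.82 with CDK16-sh1 and of -0.38 with CDK16-sh2, against medians of -0.00 and 0.02 over all genes. With GC and length trends removed these medians were -0.59 and -0.11, against 0.02 and 0.11 over all genes, and with library totals they were -0.85 and -0.57. Both hairpins share the scramble library, so their values are set side by side and are not independent. A fall of at least 2-fold, the size used by the study, was met by 2 of 10 genes in CDK16-sh1 (SUZ12 and DNMT3A), where 6.86% of all tested genes were that much lower, and by 2 of 10 in CDK16-sh2 (DNMT3B and UHRF1), where 7.62% were. None was 2-fold higher with either hairpin, as 4.33% and 2.2% of all genes were. At 1.5-fold, 7 of 10 genes were lower in CDK16-sh1, where 18.8% of all genes were, and 2 of 10 in CDK16-sh2, where 16.8% were. At 4-fold, none was lower with either, where 0.438% and 1.09% of all genes were. None of the 10 passed 2-fold with both hairpins. The share of all tested genes that passed with both was not counted, so nothing is read from this lack of overlap.

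With both hairpin libraries taken as a single treated group, edgeR's quasi-likelihood test called none of the 10 genes and none of the 15295 tested genes at an adjusted p of at most 0.05 with a 2-fold change. That test found 382 genes at an unadjusted p under 0.05, and SUZ12 was the only one of the 10 among them (unadjusted p = 0.0488, adjusted p = 0.9997, edgeR). DESeq2 also called 0 genes, with 233 at an unadjusted p under 0.05. The hairpin libraries are not replicates of each other, so the spread in this test includes the difference between hairpins.

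The second comparison asked the same of the drug. In 1 μM Reb 4 of the 10 genes were below DMSO and 6 above it, where 49.8% of all tested genes were below. None differed by 2-fold (1.92% of all genes were that much lower and 1.28% higher), and the values ran from -0.37 (UHRF1) to 0.26 (HELLS). In 5 μM Reb 5 of the 10 were below DMSO, where 51.7% of all genes were. Those 5 were each at least 2-fold lower (DNMT1, DNMT3A, DNMT3B, UHRF1 and SUZ12), beside 27.2% of all genes, and 2 were at least 2-fold higher (EZH2 and TET3), beside 23.6%. DNMT3A and UHRF1 were also at least 4-fold lower, beside 10.1% of all genes. The share of lower genes was 5 in 10 and that of higher genes 2 in 10, in a library where 4254 genes were 2-fold lower and 3695 higher, so the genes are described one by one below and not as a group. TET2, EED and HELLS lay between 0.26 and 0.33.

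Scaling mattered most for 5 μM Reb. When counts were divided by the library totals instead of the TMM-scaled totals, the median of all genes moved by -0.68 in 5 μM Reb and by -0.19 in CDK16-sh2. TET2, EED and HELLS were then below DMSO (-0.36, -0.36 and -0.43), EZH2 (0.68) and TET3 (0.38) were above it but no longer by 2-fold, and the 5 lower genes were still at least 2-fold lower. EZH2 was at 0.87 with expression and length trends removed and TET3 at 0.87 without the filter, and DNMT1 was at -0.97 with DESeq2 size factors. With the trends over GC content and length removed, DNMT1 (-0.59) and DNMT3B (-0.75) were no longer 2-fold lower.

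With both doses as a single treated group, edgeR's quasi-likelihood test called 0 of the 10 genes, while it called 1 lower and 11 higher among the 15655 tested (0.00639% and 0.0703%). DESeq2 called 0 of the 10 as well, with 4 lower and 14 higher in all (0.0256% and 0.0894%). An alternative with log2(dose + 1) as a linear term called 3 of the 10 as lower, DNMT3A (edgeR adjusted p = 0.00349), UHRF1 (0.00149) and SUZ12 (0.0335), where 11.1% of all genes were called lower and 13.3% higher. That fit assumes a straight line through 3 libraries, and the spread around it is its whole estimate of error.

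**Figure D2:**
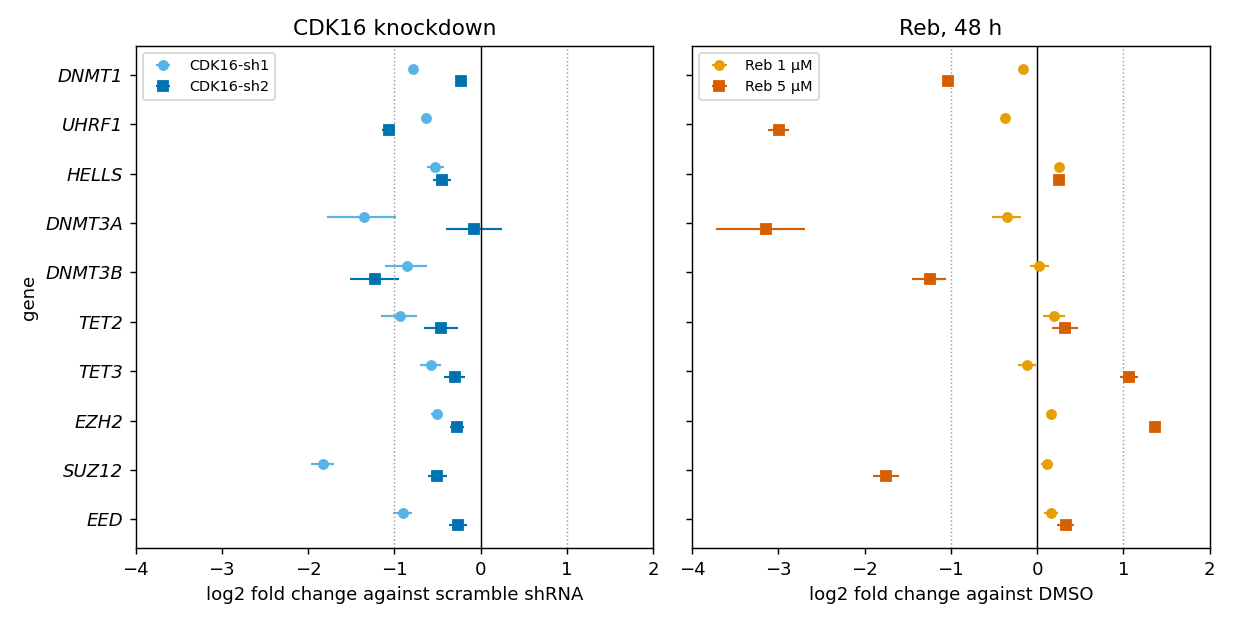
Log2 fold change of each gene against its own control (x axis), on the TMM scale, with 95% counting intervals as bars; dotted lines mark 2-fold. All 10 genes lie left of 0 with both hairpins (HELLS with CDK16-sh1, and DNMT3A and EED with CDK16-sh2, cross to the right when GC and length trends are removed), whereas in 5 μM Reb 5 genes lie left of -1 and EZH2 and TET3 right of 1, the last 2 falling inside 1 when library totals set the scale.

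The maintenance genes are given first. DNMT1 (chr19:10133345-10231286, minus strand), the enzyme that copies the mark, had 94.97, 53.9 and 70.7 RPKM in scramble shRNA, CDK16-sh1 and CDK16-sh2, and 149, 137 and 45.0 RPKM in DMSO, 1 μM and 5 μM Reb. The hairpin libraries were both below their control, by a log2 fold change of -0.79 (95% counting interval -0.82 to -0.76) and -0.23 (-0.26 to -0.20). At 1 μM Reb the difference was -0.16, and at 5 μM it was -1.03 (-1.06 to -1.01), a value at the edge of the 2-fold line that 26.5% of all genes in that library fell below. DNMT1 shares 83 exonic bases with S1PR2 on the same strand, which had at most 134 counts where DNMT1 had 16614 or more.

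UHRF1 (chr19:4903080-4962154, plus strand), which brings DNMT1 to hemimethylated CG, had 38.6, 24.3 and 16.0 RPKM across the knockdown libraries and 39.8, 31.9 and 3.09 RPKM across the drug libraries. Every treated library was below its control. The hairpins gave log2 fold changes of -0.64 (-0.70 to -0.58) and -1.07 (-1.14 to -0.996). They were -0.37 (-0.41 to -0.33) in 1 μM Reb and -2.99 (-3.12 to -2.88) in 5 μM Reb, where UHRF1 went from 10305 counts to 599 and stood below 97.0% of all genes. Its fold change kept the same sign, and passed 2-fold in 5 μM Reb and CDK16-sh2, under each of the 9 scalings and filters tried. DNMT1 over UHRF1, a ratio of RPKM that no library scaling can alter, was 2.46 with scramble shRNA, 2.22 with CDK16-sh1 and 4.41 with CDK16-sh2, and 3.73, 4.30 and 14.6 (13.4 to 15.8) in DMSO, 1 μM and 5 μM Reb. By this ratio UHRF1 was lower relative to DNMT1 in CDK16-sh2 and in both Reb libraries, by more than the counting intervals, and not in CDK16-sh1. Removal of GC and length trends acts on genes and can alter the ratio. It put UHRF1 at -0.87 and DNMT1 at -0.67 in CDK16-sh1, so their order in that library depended on this correction.

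HELLS (chr10:94501434-94613905, plus strand) is the remodeler whose loss lowers DNA methylation in mouse and human cells. It had 7.28, 4.94 and 4.64 RPKM in the knockdown libraries and 10.2, 12.6 and 7.56 in the drug libraries. Both hairpins gave lower values, by -0.53 and -0.45, although CDK16-sh1 gave 0.03 once GC and length trends were removed. In 1 μM Reb it was at 0.26 (0.20 to 0.31). In 5 μM Reb the TMM value was also 0.26, and it changed sign with library totals (-0.43), with RPKM (-0.43) and with the GC and length (-0.07) or expression and length (-0.09) trends removed, so no direction is given for HELLS at that dose.

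Of the de novo enzymes, DNMT3A (chr2:25227855-25342590, minus strand) was the more sparsely counted. Its counts were 167, 78 and 147 in scramble shRNA, CDK16-sh1 and CDK16-sh2, and 666, 531 and 34 in DMSO, 1 μM and 5 μM Reb. CDK16-sh1 and 5 μM Reb were the low libraries. The log2 fold change was -1.35 (-1.78 to -0.98) in CDK16-sh1, and it was -0.95 with expression and length trends removed. In CDK16-sh2 it was -0.08 with an interval that covered 0 (-0.41 to 0.25), so that no difference was detectable at this depth. In 5 μM Reb it was -3.14 (-3.73 to -2.69), below 97.6% of all genes, and between -3.81 and -2.67 under all scalings tried.

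DNMT3B (chr20:32762385-32809356, plus strand), the other de novo enzyme, had 367, 244 and 145 counts in the knockdown libraries and 1320, 1367 and 258 in the drug libraries. Both hairpins were below scramble, by -0.86 (-1.11 to -0.63) and -1.22 (-1.52 to -0.95). DNMT3B did not differ from DMSO beyond counting error at 1 μM Reb (0.03, -0.08 to 0.14) and was at -1.24 (-1.45 to -1.05) at 5 μM. Within a library DNMT3B stood above DNMT3A per unit of length throughout, with ratios of 5.71 (4.74 to 6.89), 8.12 (6.27 to 10.6) and 2.56 (2.02 to 3.24) in the knockdown libraries and 5.15, 6.68 and 19.7 (13.7 to 29.1) in the drug libraries. The CDK16-sh2 ratio lay below the scramble ratio by more than the counting intervals, and the CDK16-sh1 interval overlapped that of scramble.

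The TET enzymes, which oxidize 5-methylcytosine, did not share the low values of 5 μM Reb. TET2 (chr4:105145875-105279816, plus strand) had 502, 316 and 339 counts in the knockdown libraries and 991, 1154 and 576 in the drug libraries. Its log2 fold changes were -0.94 (-1.15 to -0.74) and -0.46 (-0.66 to -0.26) with the hairpins and 0.20 and 0.32 with Reb, the last turning to -0.36 with library totals and -0.33 with RPKM. TET3 (chr2:73986404-74108176, plus strand) had 1240, 1003 and 934 counts, and 1523, 1430 and 1483. It was lower with both hairpins (-0.58 and -0.30) and near DMSO at 1 μM (-0.11). Its counts at 5 μM were close to those of DMSO in a library of fewer counts, which gave a log2 fold change of 1.07 (0.97 to 1.17), and 0.38 with library totals. TET3 over TET2 was 3.32 (2.99 to 3.69) in scramble shRNA, 4.26 with CDK16-sh1 and 3.70 with CDK16-sh2. It was 2.06 in DMSO, 1.66 in 1 μM Reb and 3.46 (3.14 to 3.81) in 5 μM Reb, the last above the other drug libraries by more than the counting intervals and overlapping that of scramble shRNA.

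The PRC2 core subunits came apart from each other. EZH2 (chr7:148807383-148884321, minus strand), the methyltransferase, had 26.7, 18.4 and 19.3 RPKM in scramble shRNA, CDK16-sh1 and CDK16-sh2, and 37.5, 43.4 and 60.2 in DMSO, 1 μM and 5 μM Reb. It was lower with both hairpins, by -0.51 (-0.58 to -0.43) and -0.27 (-0.35 to -0.20), and above DMSO at both doses, by 0.16 (0.12 to 0.20) and 1.37 (1.33 to 1.41). The 5 μM value was above 0 under every scaling tried (0.68 to 1.44), and 83.8% of all genes were below it on the TMM scale.

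SUZ12 (chr17:31937018-32001045, plus strand), the scaffold, had 1738, 591 and 1137 counts in the knockdown libraries and 2993, 3286 and 412 in the drug libraries. CDK16-sh1 and 5 μM Reb were low, and 1 μM Reb was not. Its value of -1.83 (-1.97 to -1.70) in CDK16-sh1 was below that of 99.3% of all genes, and it was -1.28 with GC and length trends removed. In CDK16-sh2 it was -0.50 (-0.61 to -0.40), and at 1 μM and 5 μM Reb it was 0.11 (0.04 to 0.18) and -1.75 (-1.90 to -1.60). SUZ12P1, a near-identical pseudogene, had 226, 242 and 188 counts and then 177, 273 and 107, and reads of both genes may be split between them. With the counts of both added, an alternative chosen after seeing the data, CDK16-sh1 was at -1.51 and 5 μM Reb at -1.50. EZH2P1 is likewise a copy of EZH2, and no count of it was used.

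EED (chr11:86244544-86278813, plus strand), the subunit that binds the trimethylated histone tail, had 1685, 1092 and 1304 counts in the knockdown libraries and 2334, 2645 and 1364 in the drug libraries. It was at -0.90 (-1.01 to -0.79) in CDK16-sh1 and -0.26 (-0.37 to -0.16) in CDK16-sh2, where it became 0.06 with GC and length trends removed. With Reb it was 0.16 at 1 μM and 0.33 at 5 μM, and the second turned to -0.36 with library totals, -0.35 with RPKM and -0.07 with GC and length trends removed.

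Ratios of the PRC2 subunits within a library show this without any scaling between libraries. Removal of GC and length trends acts on genes and can alter these ratios. In CDK16-sh1 it put EZH2 at -0.23 and EED at -0.34, nearer each other than their TMM values of -0.51 and -0.90, and SUZ12 at -1.28. The ratios over SUZ12 also leave out the SUZ12P1 counts given above, which would lower them if added. EZH2 over SUZ12 was 2.60 (2.45 to 2.76) in scramble shRNA, 6.51 (5.96 to 7.13) in CDK16-sh1 and 3.05 (2.84 to 3.28) in CDK16-sh2. It was 4.13 (3.96 to 4.31) in DMSO, 4.27 (4.10 to 4.44) in 1 μM Reb and 36.0 (32.6 to 39.8) in 5 μM Reb. EED over SUZ12 was 0.905 (0.846 to 0.968) in scramble shRNA, 1.72 (1.56 to 1.91) with CDK16-sh1 and 1.07 (0.988 to 1.16) with CDK16-sh2, and it was 0.728, 0.751 and 3.09 (2.77 to 3.46) in DMSO, 1 μM and 5 μM Reb. SUZ12 was thus below EED per unit of length in CDK16-sh1 and 5 μM Reb, overlapped it in CDK16-sh2 and was above it in both controls and 1 μM Reb. EZH2 over EED was nearly the same in scramble shRNA (2.87) and CDK16-sh2 (2.85) and in DMSO (5.68) and 1 μM Reb (5.68), and was 3.78 in CDK16-sh1 and 11.7 in 5 μM Reb. EZH1, the other PRC2 methyltransferase, went the opposite way to EZH2. EZH2 over EZH1 was 6.82 in scramble shRNA against 3.99 and 4.15 with the hairpins, and 6.91 in DMSO against 10.9 and 37.7 with Reb. Whether these transcript ratios carry over to protein was not measured.

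**Figure D3:**
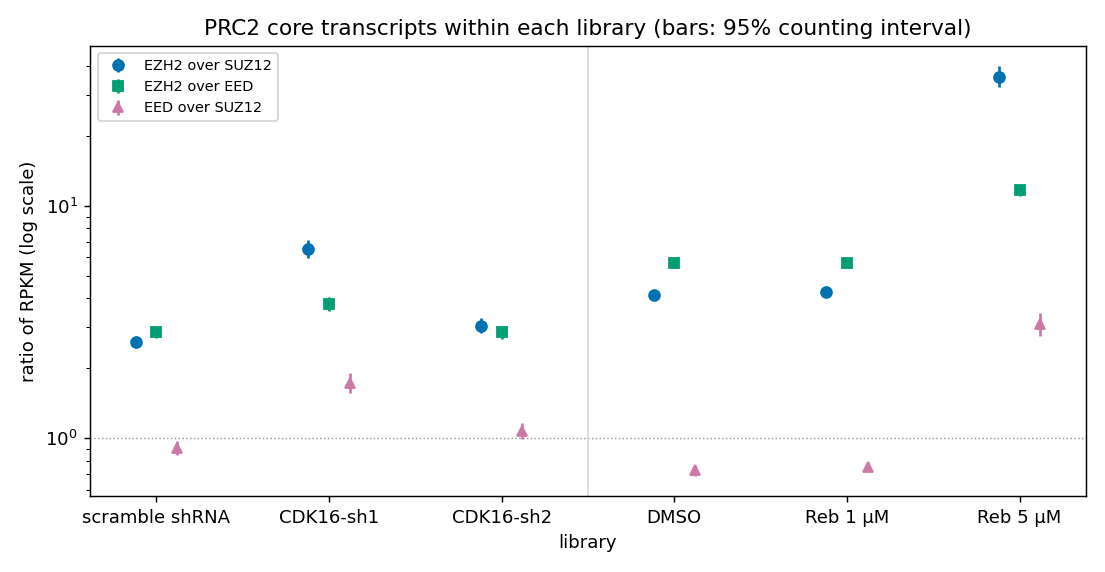
Ratio of RPKM (log axis) between pairs of PRC2 core transcripts within each of the 6 libraries (x axis), with 95% counting intervals as bars. EZH2 over SUZ12 lies at 6.51 in CDK16-sh1 and 36.0 in 5 μM Reb, above the other library values of 2.60 to 4.27. These ratios do not depend on library scaling, but removal of GC and length trends can alter them.

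The hairpins were also compared directly. Relative to CDK16-sh1, CDK16-sh2 had 2 of the 10 genes at least 2-fold higher, SUZ12 at 1.32 (1.18 to 1.47) and DNMT3A at 1.27 (0.89 to 1.71), beside 6.53% of all genes, and none of the 10 at least 2-fold lower, beside 8.68%. EED (0.64), DNMT1 (0.56) and TET2 (0.48) were also higher with CDK16-sh2. UHRF1 (-0.43) and DNMT3B (-0.36) were lower with it, and HELLS (0.08, -0.03 to 0.18) did not differ beyond counting error. CDK16 itself was lower in CDK16-sh2 than in CDK16-sh1, by -0.30. For the doses, 5 μM against 1 μM Reb gave 4 genes at least 2-fold lower (DNMT3A, UHRF1, SUZ12 and DNMT3B, -2.79 to -1.27), beside 25.8% of all genes, and 2 at least 2-fold higher (EZH2 1.21 and TET3 1.18), beside 22.8%.

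The genes with and without an E2F word in their promoter windows overlapped in their values at 5 μM Reb. In 5 μM Reb the 5 genes with a word lay at -2.99 (UHRF1), -1.75 (SUZ12), -1.03 (DNMT1), 0.26 (HELLS) and 1.37 (EZH2). Those without a word lay at -3.14 (DNMT3A), -1.24 (DNMT3B), 0.32 (TET2), 0.33 (EED) and 1.07 (TET3). Each group thus held both low and high genes at that dose. The only DNMT3B window lay inside its counted span, so the bases before that span were not searched and its place in the second group is uncertain. The part of E2F factors in these values was not tested.

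**Figure D4:**
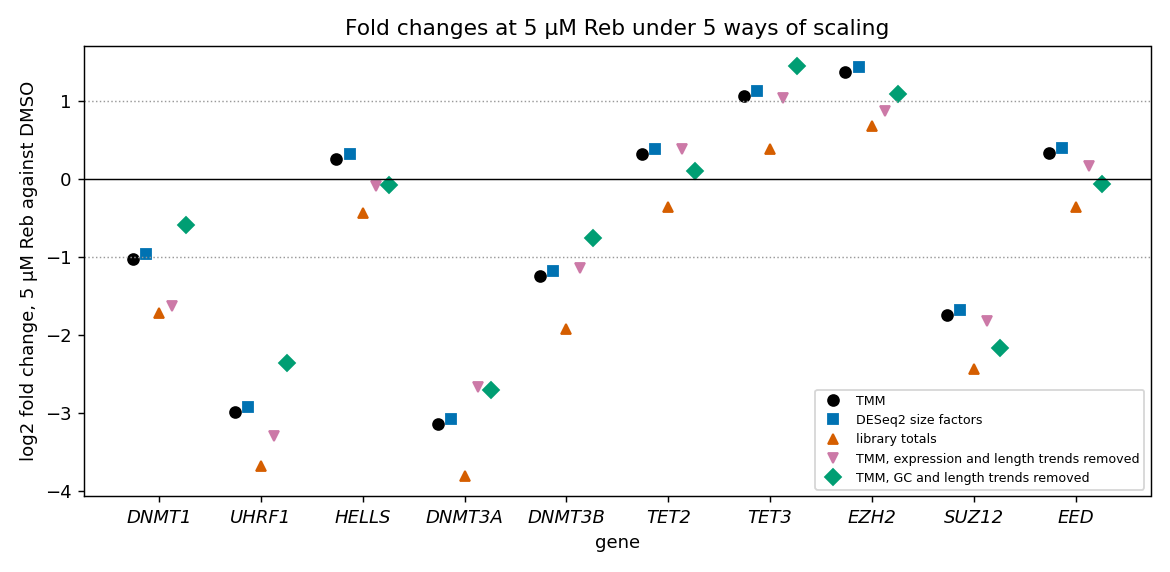
Log2 fold change of each gene at 5 μM Reb against DMSO (y axis) under 5 ways of scaling, with dotted lines at 2-fold. DNMT1, UHRF1, DNMT3A, DNMT3B and SUZ12 lie below 0 and EZH2 and TET3 above 0 under all 5, whereas TET2, EED and HELLS change sign, lying below 0 with library totals.

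Genes that work with the DNA methylation enzymes were followed as a list of 25, of which 23 were tested in the knockdown experiment and 24 in the drug experiment. In CDK16-sh1 4 were at least 2-fold lower and none higher, and in CDK16-sh2 2 were lower and none higher (medians -0.17 and 0.02). Over all tested genes 6.86% and 7.62% were that much lower, and 4.33% and 2.2% higher. CDCA7, which recruits HELLS to chromatin, had 760, 376 and 361 counts and was at -1.29 and -0.96 with the hairpins. It was at 0.71 and 2.71 with 1 μM and 5 μM Reb, the opposite side of its control. LIG1, the replicative DNA ligase, was at -0.66 and -0.99 with the hairpins. GADD45A, linked to repair-based demethylation and to stress, was above the control in all 4 treated libraries (0.69 and 0.43, then 0.56 and 3.54).

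In 1 μM Reb 1 of the 24 partners was 2-fold lower and 2 higher, beside 1.92% and 1.28% of all genes (median 0.09). In 5 μM Reb 4 were lower and 7 higher, beside 27.2% and 23.6% of all genes (median -0.28). ZBTB38, a methyl-CG binding zinc finger protein, had 3624, 1965 and 184 counts and was at -0.91 and -3.18, and MBD3 of the NuRD complex was at -0.34 and -1.98. TET1, the family member absent from the 10 genes, had 44, 155 and 16 counts in DMSO, 1 μM and 5 μM Reb. Its highest count was in the library that also had the highest LYZ and PTPRC counts, and their part in it was not tested. In the knockdown libraries TET1 had at most 32 counts and was not tested.

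Of 14 names listed as PRC2 partners, 12 were found (the EPOP gene under its older symbol C17orf96) and 11 tested. With CDK16-sh1 none was past 2-fold and with CDK16-sh2 only AEBP2 was, at -1.20, where 6.86% and 7.62% of all genes were 2-fold lower. AEBP2 belongs to the form of PRC2 that also holds JARID2. PHF19, a Polycomb-like subunit that binds CG-rich DNA, was at -0.44 and -0.77 with the hairpins and at -0.34 and -0.83 with Reb. EZH1 was at 0.27 and 0.44 with the hairpins and at -0.50 and -1.07 with Reb, and PHF1 was at 0.88 and 0.12 with the hairpins. With 1 μM Reb none was past 2-fold. With 5 μM Reb EZH1 was lower and 3 genes higher, beside 27.2% and 23.6% of all genes. Among the 3 was MTF2, another Polycomb-like subunit (0.20 and 1.40 with 1 μM and 5 μM Reb). The list medians were -0.26, -0.30, -0.07 and 0.32 in the 4 treated libraries.

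Polycomb repressive complex 1, which puts ubiquitin on histone H2A and is unrelated to the cytokinesis gene PRC1, gave 27 genes, all tested. With CDK16-sh1 1 was 2-fold lower, with CDK16-sh2 3 were, and none was higher (medians -0.03 and -0.12). Over all tested genes 6.86% and 7.62% were 2-fold lower with these hairpins, and 4.33% and 2.2% higher. SCML1, a sex comb on midleg homolog, was lower with both (-1.12 and -2.50), and PHC2 was at 0.60 and 0.51. With 1 μM Reb none was past 2-fold, and with 5 μM Reb 6 were lower and 9 higher, beside 27.2% and 23.6% of all genes (medians -0.01 and 0.73). RING1, a catalytic subunit, was at -0.71 and -1.87 with Reb, and PHC3 was at 0.30 and 1.04. The median of all genes in 5 μM Reb was -0.07 on this scale, and with library totals the median of all genes moves by -0.68, which is about the size of the list's median.

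Enzymes that remove the Polycomb marks and their ASXL partners, together called erasers here, were 7 listed and 6 tested. KDM6B, a demethylase of histone H3 lysine 27, had 294, 1693 and 786 counts in scramble shRNA, CDK16-sh1 and CDK16-sh2, log2 fold changes of 2.24 and 1.52. It was the only tested eraser above 2-fold with the hairpins, while ASXL2, a partner of the H2A deubiquitinase BAP1, was at -0.95 and -1.40. KDM6B was at -0.41 and 0.52 with Reb, ASXL2 at -0.23 and -1.06, and BAP1 at -0.45 and -1.90. In total 0 erasers were 2-fold lower and 1 higher in CDK16-sh1, 1 lower and 1 higher in CDK16-sh2, none either way in 1 μM Reb, and 2 lower and 1 higher in 5 μM Reb. Over all tested genes the lower shares in these libraries were 6.86%, 7.62%, 1.92% and 27.2%. The higher shares were 4.33%, 2.2%, 1.28% and 23.6%.

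Replication genes were measured beside the 10 genes because DNMT1, UHRF1 and HELLS are most abundant in S phase. Of 27 such genes 22 were below scramble with CDK16-sh1 (1 of them by 2-fold) and 26 with CDK16-sh2 (7 by 2-fold), with medians of -0.29 and -0.62. Over all tested genes 50.1% and 48.6% were below scramble with these hairpins, and 6.86% and 7.62% were 2-fold lower. In 1 μM Reb 9 were below DMSO and none past 2-fold (median 0.13), where 49.8% of all genes were below. In 5 μM Reb 23 were below and 18 at least 2-fold lower, with 1 higher (median -1.57). In that library 51.7% of all genes were below, 27.2% were 2-fold lower and 23.6% 2-fold higher. TOP2A was at -1.25 and -1.26 and CDC6 at -0.74 and -0.995 with the hairpins, and MKI67 was at -0.62 and -3.02 and RRM2 at -0.47 and -3.64 with Reb. Among the genes above DMSO at both doses were GINS3 (0.22 and 0.71) and POLA1 (0.23 and 0.16). The list's median was thus below 0 in both hairpin libraries and in 5 μM Reb, as the value of UHRF1 was, whereas EZH2 was higher than DMSO in 5 μM Reb. The part of replication in any of these values was not tested, and in bulk RNA fewer cells of a kind and less RNA per cell cannot be told apart. None of the genes of these 5 lists was called by edgeR's quasi-likelihood test in either experiment.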

How the data were processed

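Total RNA of MDA-MB-231 cells was made into stranded mRNA libraries, 1 per condition. The authors deposited read counts per gene and RPKM values. Per the submitters' processing notes these came from Trimmomatic, featureCounts of Subread 1.5.1 and GRCh38; the aligner and the strand setting of counting are not given in the sources used here. The deposited RPKM values equal counts divided by exon length and library total, and include mitochondrial transcripts, so a library with more of them shows lower RPKM for every other gene.

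Counts were filtered at a mean of 1 CPM per experiment and scaled by TMM (edgeR 4.0.16, R 4.3.3). Log2 fold changes used a prior count of 2, with exact (Clopper-Pearson) 95% intervals from the counts of both libraries. Treated libraries were tested together against their control by edgeR's quasi-likelihood test and DESeq2 1.42.0, with Benjamini-Hochberg adjustment over all tested genes. In these tests the treated libraries supply all the spread, the lone control is assumed to vary like them, and p-values measure only the spread between these samples. The scripts were tested on simulated data with known changes, which does not measure the error of a single library. Alternatives were other scalings, no filter, a prior of 0.5, RPKM plus 0.1, other folds, and removal of loess trends over GC and length or over expression and length. The experiments were normalized separately and no test was made across them.

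The 10 genes and the lists (DNA methylation partners, PRC2 partners, Polycomb repressive complex 1, erasers, replication genes, germline genes, Polycomb target genes and cell type markers) were chosen with earlier results of these data known. Named from each list were the 2 largest falls and rises per experiment, ranked by the smaller change of the treated libraries among genes of at least 5 CPM, and the nearest genes by Euclidean distance over the 4 fold changes. Genes named outside this rule (TDG, IDH1, RYBP, USP7, CBX7, L3MBTL2, HOXC10, MAGEA3, SYCP3, DDX4, TKTL1, SYCE1, MAEL, TDRD9, SOHLH2, TET1, SUZ12P1, S1PR2 and the marker genes) were chosen after their values were seen. Some genes that the rule names are not reported here. Gene spans matched GENCODE 29, and promoters are from RefSeq.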

Additional observations from a re-analysis of the deposited data

Results flagged for a closer look

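In 4 genes both hairpin libraries lay below scramble shRNA and both Reb libraries above DMSO. The share of all tested genes with this pattern was not counted, so nothing particular to these genes is read from it. The difference between the experiments was not tested, since each condition is 1 library and the tables were normalized separately. EZH2 was at -0.51 and -0.27 with CDK16-sh1 and CDK16-sh2 and at 0.16 and 1.37 with 1 μM and 5 μM Reb. TET2 was at -0.94 and -0.46 with the hairpins and at 0.20 and 0.32 with Reb. EED was at -0.90 and -0.26 and then at 0.16 and 0.33. HELLS was at -0.53 and -0.45 and then at 0.26 and 0.26. Only EZH2 kept its sign in all 4 libraries under every scaling tried, since at least 1 value of each of the other 3 changed sign. The 5 μM Reb values of TET2, EED and HELLS turned negative with library totals (-0.36, -0.36 and -0.43). With GC and length trends removed, the 1 μM Reb values of EZH2 and EED were 0.02 and -0.01. The trend over GC ran in opposite directions in the knockdown and Reb experiments, and its part in this pattern was not tested.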

How the results depend on the processing

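No paired analysis was possible because each condition has 1 library and the labels give no replicate numbers to share. Of the 10 genes, 2 were past 2-fold in CDK16-sh1, a count that became 1 with expression and length trends removed, 7 at 1.5-fold and 0 at 4-fold. The 2 of CDK16-sh2 became 0 at 4-fold, and the 7 of 5 μM Reb became 2 at 4-fold (DNMT3A and UHRF1 were at -3.14 and -2.99). The count of 0 called in the Reb test became 3 with dose as a linear term. Under the other 45 alternatives these counts stayed within 1.5 times their main value. Among single fold changes 104 values moved by more than their counting interval and 220 did not. Signs that changed are given with each gene, and beside them SUZ12 (-0.05) and EED (-0.01) in 1 μM Reb with GC and length trends removed and DNMT3A in CDK16-sh2 with GC and length (0.16) or expression and length (0.31) trends removed; the cause was not tested. GC content was known for 84.6% of tested genes in the knockdown experiment, and across those genes the fold change of CDK16-sh1 correlated with GC at r = 0.467, that of CDK16-sh2 at 0.114, which describes genes and not replicates. Genes rich in AT such as SUZ12 (37.7% GC), EED (37.9%) and HELLS (38.2%) moved most when this trend was removed in CDK16-sh1. In the Reb experiment GC content was known for 84.3% of tested genes. There the correlation had the opposite sign, at r = -0.307 in 1 μM and -0.215 in 5 μM Reb. Depth limited DNMT3A most, with 34 counts in 5 μM Reb.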

Other observations

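Germline and cancer-testis genes, many of which are kept silent by DNA methylation, were listed as 35 names. In the knockdown experiment 5 were tested, with none past 2-fold and medians of -0.36 and 0.19, while 24 of the listed genes had at most 3 counts in each knockdown library. In the Reb experiment 18 were tested, none past 2-fold at 1 μM (median -0.05), and 4 lower and 9 higher at 5 μM (median 1.02), in a library where 27.2% and 23.6% of all genes were that much lower and higher. XAGE1A had 6045, 7096 and 8854 counts and was at 0.21 and 1.66, and MAGEA6 was at 0.16 and 1.25. SSX1 had 1067, 720 and 259 counts and was at -0.59 and -0.93, and MAGEC2 was at -0.35 and -0.18. The MAGE, SSX and XAGE genes have near-identical copies, so their counts are uncertain, and with library totals the values of the 5 μM library move down by the shift given for all genes. In DMSO the cells already had 6045 counts of XAGE1A, 4133 of MAGEA3 and 2545 of MAGEA6. In scramble shRNA XAGE1A had 4007 counts, but MAGEA3 had 1, MAGEA6 0 and SSX1 17. The controls of the experiments thus differed widely in some of these genes, and the cause was not tested. At 5 μM Reb the germ cell genes DDX4, TKTL1 and SYCE1 had 0 counts and in DMSO at most 2, too few to show a difference either way. Between DMSO and 5 μM Reb, MAEL went from 26 counts to 0, TDRD9 from 14 to 0 and SOHLH2 from 14 to 2. SYCP3, a meiotic axis protein, went from 44 to 93 (2.13). A link of these counts to the methylation enzymes was not tested.

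Genes known as Polycomb targets were listed as 45 names, of which 13 were tested in the knockdown and 16 in the Reb experiment. In CDK16-sh1 none was 2-fold lower and 1 higher, in CDK16-sh2 3 were lower and none higher (medians 0.02 and -0.50). Over all tested genes 6.86% and 7.62% were that much lower with these hairpins, and 4.33% and 2.2% higher. BMP4, a growth factor, had 1509, 997 and 455 counts and was at -0.87 and -1.62, DAB2IP was at -0.53 and -0.63, and HOXB9 was at 0.72 and 0.26. In 1 μM Reb 1 was lower and 1 higher, beside 1.92% and 1.28% of all genes (median -0.31). In 5 μM Reb 6 were lower and 3 higher, beside 27.2% and 23.6% of all genes (median -0.37). SOX9 was at -0.84 and -0.60 with Reb, HOXB9 at 0.12 and 0.60 and GATA2 at 0.01 and 0.02. HOXC10, chosen after its values were seen, had 10, 56 and 96 counts in DMSO, 1 μM and 5 μM Reb and was at 2.21 and 4.08. Its counts were few, so these values are uncertain. No gene of either list was called by edgeR's quasi-likelihood test.

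Other single genes were chosen from the lists after their values were seen. TDG, the glycosylase that completes TET-dependent demethylation, had 871, 266 and 834 counts in scramble shRNA, CDK16-sh1 and CDK16-sh2, and was at -1.98 and 0.04, a split between hairpins like that of SUZ12. IDH1, whose product feeds the TET enzymes, was at -1.21 and 0.08. RYBP, a subunit of the noncanonical Polycomb repressive complex 1, had 917, 1012 and 5396 counts in DMSO, 1 μM and 5 μM Reb and was at 0.12 and 3.66, and USP7, the deubiquitinase that stabilizes DNMT1 and UHRF1, had 6872, 6688 and 15343 counts and was at -0.06 and 2.27. CBX7 went from 461 counts in DMSO to 16 in 5 μM Reb (-3.65), and L3MBTL2 from 813 to 40 (-3.20). Over all tested genes 6.86% were at least 2-fold lower in CDK16-sh1. In 5 μM Reb 27.2% were at least 2-fold lower, 10.1% at least 4-fold lower and 23.6% at least 2-fold higher. Changes of this kind were thus not particular to these genes.

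Over the 4 log2 fold changes, the gene nearest to each of the 10 among 10553 others (10554 for DNMT3A) that averaged 5 CPM or more in each experiment was found by Euclidean distance. It was VAMP7 for EZH2 (0.0923), SCYL2 for HELLS (0.0769), CATSPER2P1 for TET3 (0.0726), PCNP for EED (0.107), TRPM7 for TET2 (0.110) and ERLEC1 for DNMT1 (0.149). For DNMT3B it was CYP4V2 (0.227), for UHRF1 RHNO1 (0.268), for SUZ12 MYO5C (0.272) and for DNMT3A CLIP2 (0.375). None of the 10 was the nearest gene of another of them. DNMT3A averaged too few counts to be a candidate, and with 10553 candidates for each gene nothing is read from this. Genes of small change have near neighbours by this measure, and those of large change have few.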
